A study of Mus musculus with 26 samples.

Results

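Cytosolic ribosomal proteins build both subunits of the ribosome outside mitochondria. Their genes were taken by symbol: Rpl or Rps followed by a number, together with Rpsa, Rplp0, Rplp1 and Rplp2, and without pseudogene symbols, S6 kinase genes and symbols ending in the letter l. This gave 83 of the 46517 symbols in the table. Of these, 79 had a normalized count of at least 10 in at least 2 libraries and were tested, 48 of the large (60S) and 31 of the small (40S) subunit. They lay on 19 chromosomes. Rps3a2, Rps3a3, Rps12l1 and Rps12l2 were not tested, since none of their values passed 8.87. The thymocytes came from 3 T cell receptor transgenic lines: TG6 (TG6tg, H2b/d, C57/BL6 x B6.C-H2d/bByJ, Rag-sufficient, low self-reactivity), F5 (F5tg, Rag1KO, intermediate) and OT-1 (OT-1tg, Rag2KO, high). Every mouse carried a transgenic receptor, and receptor, Rag status and strain change together between lines and cannot be told apart. The mice were 3 to 10 weeks old. From each line 3 populations were sorted. Cells called early here were CD4+CD8+ with the phenotype CXCR4+CCR7-. Cells called late were also CD4+CD8+ but had become CXCR4-CCR7+. Mature CD8SP cells were CXCR4-CCR7+ and had lost CD4 (CD4-CD8+). Each group held 3 libraries, except TG6 late with 2.

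As background, most ribosomal proteins are present in a single copy per ribosome, the stalk proteins Rplp1 and Rplp2 in more, and their genes tend to be expressed together. Most of their mRNAs begin with a C and a run of pyrimidines, the 5′ terminal oligopyrimidine (TOP) motif, through which the growth kinase mTOR and the RNA-binding protein LARP1 set how well these mRNAs are translated. Some members have roles of their own in the thymus: loss of Rpl22 blocks αβ T cell development, and its paralog Rpl22l1 can take its place in the subunit. Rpl5 and Rpl11 bind Mdm2 when ribosome assembly fails.

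RefSeq start sites (GRCm38.p6) were found for 59 of the 79 tested genes. At the annotated start, 13 of the 59 (22%) had a C followed by at least 4 C or T, against 3.01% of 27025 genes. Within 10 bases of the start 35 (59.3%) had such a run, against 34.4%. The following 30 bases are 10 before the start site and 20 from it. They set genes with the run at the start beside genes without it whose stage changes, under their own symbols, stood apart. Capitals mark the pyrimidine run at the start site.
Rps6 (40S, substrate of S6 kinase), chr4:86857348-86857377, minus strand: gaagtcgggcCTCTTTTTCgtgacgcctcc
Rpl35 (60S), chr2:39005112-39005141, minus strand: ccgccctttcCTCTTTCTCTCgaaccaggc
Rplp2 (60S stalk), chr7:141447641-141447670, plus strand: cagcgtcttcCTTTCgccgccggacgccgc
Rps27 (40S), chr3:90213629-90213658, minus strand: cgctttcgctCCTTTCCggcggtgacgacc
Rpl12 (60S, base of the stalk), chr2:32961702-32961731, plus strand: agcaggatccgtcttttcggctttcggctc
Rpl5 (60S, binds 5S rRNA), chr5:107900518-107900547, plus strand: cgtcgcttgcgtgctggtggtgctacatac
Rpl22l1 (paralog of Rpl22), chr3:28805498-28805527, plus strand: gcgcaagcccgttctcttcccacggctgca
Rpl7l1 (paralog of Rpl7), chr17:46782637-46782666, minus strand: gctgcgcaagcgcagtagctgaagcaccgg
Rpl12 and Rpl22l1 had such a run within 10 bases of the start but not at it, and Rpl5 and Rpl7l1 had none in that window. The letters CCGGAAG, on either strand of the 300 bases from 250 before the start to 50 after it, were found in 24 of the 59 genes (40.7%), against 9.93% of all genes. CACGTG was found in 10.2% against 8.09%, and TATAAA in 11.9% against 15.7%.

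Values are normalized counts, which summed to 16134786 to 18944173 per library. Replicates correlated at 0.95 to 0.98 on the log2 scale across the 16372 genes tested. Of the genes behind the gates, Ccr7 was at 112 to 863 in early libraries and 2698 to 12720 in the others, and Cd4 was at 62.8 to 461 in mature libraries and 1455 to 22730 in the others. Cxcr4 mRNA separated the gates less well. It was at 4598 to 5527 early, 1024 to 1133 late and 1809 to 2067 mature in TG6, at 2638 to 4185, 1139 to 2561 and 1462 to 4031 in F5 and at 1425 to 2898, 350.1 to 1432 and 1219 to 3316 in OT-1. Early libraries overlapped mature ones in F5 and OT-1, and late ones in OT-1. T lineage markers (7 genes) summed to 70710 to 129700 in every library. Marker sums stayed at or below 319 for B cells (3 of 5 genes tested), 287 for macrophages (6 of 7), 275 for dendritic cells (6 of 6), 77.6 for thymic epithelium (3 of 6) and 1280 for erythroid cells (5 of 6). Of the B cell genes, Cd79b was at 59.65 to 240.9 and Ms4a1 at 22.08 to 59.61 in every library. Pax5 was at 0 in 5 of the 9 groups and reached 61.03 in TG6 early. In TG6 the dendritic cell sum was 26.75 to 62.9 early, 70.74 to 94.9 late and 136.9 to 274.6 mature, with no overlap between stages, and its part in the TG6 changes was not tested. Early and mature libraries overlapped in this sum in F5 and OT-1. The NK sum (1 of 3 genes tested) rose from 4.85 to 112 in early libraries to 1329 to 2794 in mature ones, which was Nkg7, a gene that CD8 T cells also express, with Ncr1 at 0 in every library. Cell division genes (10 genes) summed to 41380 to 85850 in early, 428 to 7635 in late and 15670 to 75500 in mature libraries, and their part in the changes given here was not tested. In bulk libraries fewer cells of a type and less RNA per cell cannot be told apart.

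In all 3 lines the 79 genes took a growing share of the normalized counts through positive selection. In TG6 the share was 2.86, 2.83 and 2.73% in the early libraries, 3.52 and 3.32% in the late and 5.81, 5.57 and 6.07% in the mature. In F5 it was 3.39, 3.24 and 3.44% early, 4.06, 3.41 and 3.65% late and 5.14, 5.68 and 5.31% mature. In OT-1 it was 4.52, 4.89 and 4.58% early, 5.47, 5.49 and 5.42% late and 6.23, 6.14 and 5.97% mature. Successive stages did not overlap in TG6 or OT-1, while in F5 1 late library lay within the early range. From early to mature the mean share rose 2.07-fold in TG6 (2.81% ± 0.07 to 5.82% ± 0.25, SD, n = 3 each), 1.60-fold in F5 (3.36% ± 0.11 to 5.38% ± 0.28) and 1.31-fold in OT-1 (4.66% ± 0.20 to 6.11% ± 0.13). TG6 gained 0.61 percentage points up to the late stage and 2.40 after it, F5 0.35 and 1.67, and OT-1 0.79 and 0.66. The ratio of summed 60S to 40S counts went from 1.26 ± 0.02 to 1.18 ± 0.01 in TG6, from 1.25 ± 0.01 to 1.17 ± 0.02 in F5 and from 1.22 ± 0.02 to 1.17 ± 0.01 in OT-1 (SD, n = 3 each).

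**Figure D1:**
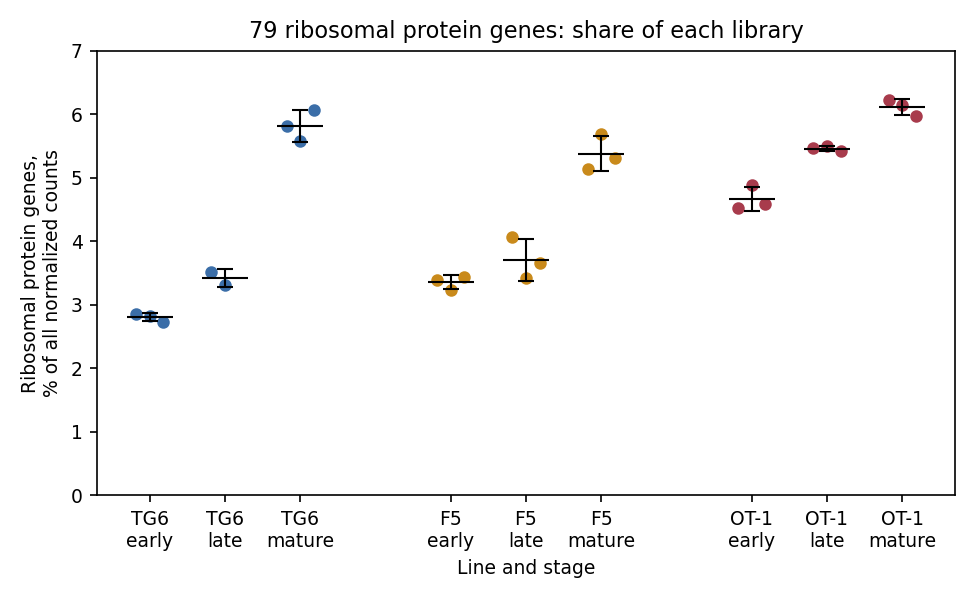
Share of all normalized counts held by the 79 ribosomal protein genes (y axis, %) by line and stage (x axis). Points are libraries, and lines with bars give the mean ± SD. In TG6 the share climbs from 2.81% to 5.82%, mostly after the late stage, while OT-1 starts at 4.66% and ends at 6.11%.

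From early to late positive selection, 34 of the 79 genes rose in TG6, 25 in F5 and 39 in OT-1, and none fell (limma on log2(normalized count + 1), Benjamini-Hochberg adjusted p under 0.05). Of all 16372 genes, 12.1% rose in TG6, 12.7% in F5 and 12.7% in OT-1. The median log2 fold change of the 79 genes was 0.25 in TG6, 0.16 in F5 and 0.24 in OT-1, against 0.00, 0.04 and 0.02 for all genes. In all 3 lines 18 genes were called, in 2 lines 13, in 1 line 18 and in none 30. At an unadjusted p under 0.05, 1 gene was lower in TG6 and none in F5 or OT-1. That gene, named after its values were seen, was Rpl28, a 60S protein, at 6993, 6841 and 6751 normalized counts early and 6222 and 5557 late, a log2 fold change of -0.22 (SE 0.10, adjusted p = 0.12).

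These early to late counts moved when 1 library was left out. The TG6 count was 16 without late replicate 1. In F5 the count was 11 and the median log2 fold change 0.07 without late replicate 1, and the count was 13 without early replicate 2. A fit of only the groups compared, which holds fewer libraries, called 4 genes in F5. For OT-1 it was 21 without late replicate 2 or early replicate 3, 22 without early replicate 1 and 23 without late replicate 1. With quantile normalization the F5 median was 0.11, against 0.10 for all genes, and 17 genes were higher and 1 lower, Rpl28 (log2 -0.26, adjusted p = 0.029, limma). F5 late replicate 1 had the highest ribosomal share of its group (4.06%). F5 late replicate 2 had the lowest (3.41%) and a cell division sum of 7635, against 442 and 428 in the other 2 libraries.

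Rplp1, an acidic protein of the ribosomal stalk that recruits elongation factors, had the largest early to late rise among the 79 genes in TG6 and F5. The gene lies on chromosome 9, 61913284 to 61914542, minus strand (mm10). In TG6 it stood at 8843, 9168 and 8772 normalized counts early, 18689 and 17938 late and 30174, 28807 and 26807 mature. In F5 the values were 11236, 9671 and 10325 early, 23044, 16678 and 19116 late and 24979, 23942 and 25150 mature. In OT-1 they were 15292, 17441 and 15977 early, 26115, 26574 and 24004 late and 29453, 29272 and 26456 mature. Early and late libraries did not overlap in any line, and late and mature libraries overlapped in OT-1 alone.
The early to late rise was 2.05-fold in TG6 (log2 1.04, SE 0.10, adjusted p = 1.4e-07), 1.87-fold in F5 (0.90, SE 0.09, adjusted p = 4.1e-07) and 1.58-fold in OT-1 (0.66, SE 0.09, adjusted p = 2.3e-05). The late to mature log2 changes were 0.64, 0.34 and 0.15, the last not called (adjusted p = 0.25). The other 2 calls ended with only the groups compared (adjusted p = 0.055 in TG6 and 0.19 in F5, limma), and the F5 call also without late replicate 2 (log2 0.23, adjusted p = 0.085). Per kilobase of the 1 annotated transcript taken for each gene, Rplp1 had the highest mean level of the 79 genes, 40383 normalized counts. Rps6 followed with 25336 and Rplp0, the stalk's anchor, with 25236. The transcript taken was as long as 5179 bases for Rps15a and 3706 for Rps20, so these ranks depend on its choice. The stalk partner Rplp2 changed less from early to late, by 0.30, 0.18 and 0.24, and from early to mature by 1.21, 0.95 and 0.58, on the log2 scale in TG6, F5 and OT-1.

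Rps27, a small subunit protein, gained mainly before the late stage in F5 and OT-1. In F5 it stood at 6767, 5918 and 6363 early, 10112, 7832 and 8430 late and 10573, 9529 and 9795 mature. In OT-1 it stood at 7978, 8799 and 8146 early, 10274, 10736 and 10505 late and 10628, 10598 and 9961 mature. Early and late did not overlap in either line, whereas late and mature did. The early to late log2 change was 0.46 in F5 (SE 0.08, adjusted p = 0.00018) and 0.34 in OT-1 (SE 0.08, adjusted p = 0.0035). The late to mature change was 0.19 in F5 (adjusted p = 0.11, and 0.026 with a block by replicate number, 0.016 with quantile normalization and 0.0083 without late replicate 1) and -0.02 in OT-1 (adjusted p = 0.91). In TG6 the early to late change was 0.24 (adjusted p = 0.063, and 0.02 with total scaling and 0.0092 with quantile normalization) and the late to mature change 0.63 (adjusted p = 3.5e-05).

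**Figure D2:**
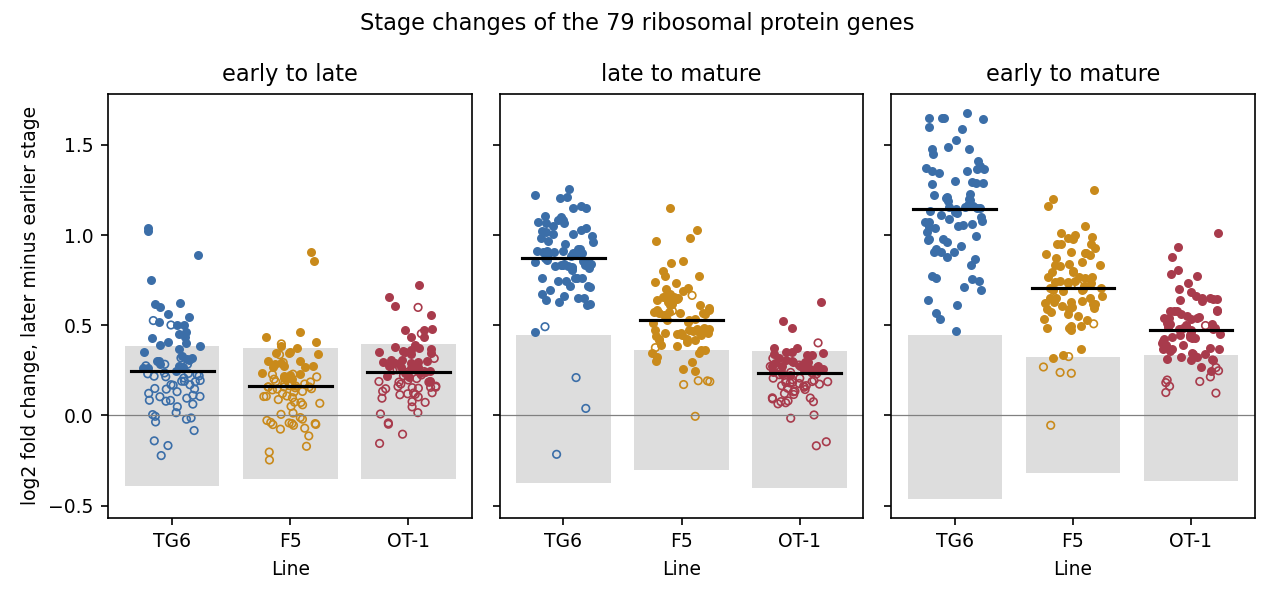
Log2 fold change of each ribosomal protein gene (points) for the 3 stage comparisons in each line. Filled points passed the test, open points did not, black lines are medians and grey boxes span the 25th to the 75th percentile of all 16372 genes. The late to mature medians are 0.88 in TG6, 0.53 in F5 and 0.24 in OT-1, while the early to late medians lie between 0.16 and 0.25.

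From late positive selection to the mature CD8SP stage, 75 of the 79 genes rose in TG6, 71 in F5 and 33 in OT-1, where 14.5%, 12.2% and 14.0% of all genes rose. By limma none of the 79 fell in any line, and none was lower at an unadjusted p under 0.05. The median log2 fold changes were 0.88, 0.53 and 0.24, against 0.00, -0.01 and -0.02 for all genes. Medians of the 60S and 40S genes were 0.85 and 0.90 in TG6, 0.48 and 0.58 in F5 and 0.23 and 0.24 in OT-1. The later of the successive changes was the larger for 74 genes in TG6, 71 in F5 and 36 in OT-1. Leaving out 1 library gave 73 to 75 calls in TG6 and 63 to 74 in F5. Fitted on F5 late and mature libraries alone, 34 genes were called in F5. In OT-1 it gave 16 without mature replicate 1, 17 without mature replicate 2 or late replicate 3, 21 without late replicate 1 or 2 and 26 without mature replicate 3. The cell division sums also rose over this interval in every line, and TG6 mature replicate 3 had both the highest such sum of its group (60220, against 15670 and 17450) and the highest ribosomal share (6.07%). F5 mature replicate 2 likewise had the highest sum (50040) and share (5.68%) of its group, whereas OT-1 mature replicate 3 had the highest sum (75500) and the lowest share (5.97%). Without TG6 mature replicate 3 73 genes were called in TG6.

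The largest late to mature rise in TG6 was that of Rpsa, a small subunit protein also known as a laminin receptor. It stood in TG6 at 12956 and 12142 late and 28023, 26530 and 36283 mature, a 2.39-fold rise (log2 1.26, SE 0.10, adjusted p = 5.2e-08). In F5 it went from 15422, 12267 and 13152 to 23022, 25509 and 24583 (1.80-fold, adjusted p = 1.8e-06). In OT-1 it went from 32055, 30966 and 31181 to 40822, 39986 and 38603 (1.27-fold, adjusted p = 0.011). Late and mature libraries did not overlap in any line. In F5 the largest rises under their own symbols were those of the small subunit genes Rps12 (2.22-fold, adjusted p = 0.00029) and Rps2 (2.04-fold, adjusted p = 4e-06). In OT-1 they were those of Rps2, from 19764, 20031 and 18051 to 30973, 30648 and 27925 (1.55-fold, adjusted p = 0.00077), and of the 60S gene Rpl14, from 6324, 6296 and 5695 to 8831, 9311 and 8152 (1.44-fold, adjusted p = 0.0011). The libraries of both stages were separate for Rps2 and for Rpl14.

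Over the whole interval from early to mature, 79 of 79 genes rose in TG6, 72 in F5 and 68 in OT-1, where 19.4%, 10.8% and 12.8% of all genes rose. By limma none fell, and none was lower at an unadjusted p under 0.05. The medians were 1.15, 0.71 and 0.48 on the log2 scale (2.21-fold, 1.63-fold and 1.39-fold). Not called in F5 were Rpl5, Rpl7a, Rpl7l1, Rpl10, Rpl24, Rpl27 and Rpl28, and in OT-1 those 7 and 4 more, Rpl7, Rpl11 and Rps9 among them. With the block by replicate number 75 genes were called in F5, Rpl5 (0.00012), Rpl10 (0.029) and Rpl7a (0.043) among them (adjusted p, limma). In OT-1 the block called 70 genes, Rpl5 (0.006) and Rpl11 (0.031) among them. Under their own symbols, the largest rises on the log2 scale were of Rplp1 (1.68) and Rpl22l1 (1.65) in TG6, of Rplp1 (1.25) and Rps12 (1.2) in F5, and of Rps12 (1.01) and Rps19 (0.93) in OT-1. Rps19, whose loss on 1 chromosome causes Diamond-Blackfan anaemia, stood in OT-1 at 5507, 6203 and 5892 early, 8855, 8852 and 8150 late and 11762, 11374 and 10433 mature. Its stages did not overlap in any line, and its early to mature rise was 3.13-fold in TG6, 2.24-fold in F5 and 1.91-fold in OT-1 (adjusted p = 7.1e-08 in OT-1).

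Early to mature changes of 9 of the members chosen by role are given for TG6, F5 and OT-1 in that order. Rpl3, next to the peptidyl transferase centre, rose 3.01-fold in TG6, 1.88-fold in F5 and 1.56-fold in OT-1 from early to mature. Rpl36a rose 3.02-fold, 2.02-fold and 1.57-fold in the same order, and Rpl39, at the exit tunnel, 2.59-fold, 1.86-fold and 1.46-fold. Rpl13a, which can leave the ribosome to silence other mRNAs, rose 2.08-fold, 1.63-fold and 1.39-fold. In the small subunit, Rps3, at the mRNA entry site, rose 2.23-fold, 1.65-fold and 1.40-fold, and the X-linked Rps4x 2.29-fold, 1.63-fold and 1.29-fold. Rps6 rose 2.25-fold, 1.70-fold and 1.36-fold, and Rps27a, made as a fusion to ubiquitin, 2.34-fold, 1.62-fold and 1.40-fold. For Rplp0 the rises were 2.22-fold, 1.74-fold and 1.29-fold. In TG6 early and mature replicate 3, 2 near-identical sequences also held counts, Gm8730 with 2776 and 6919 and Gm9625 with 1183 and 3394. Neither passed 5.05 in any other library. The residual SD of Rplp0 between replicates was 0.12 on the log2 scale, and 0.08 with such sequences added. The highest adjusted p of these 9 genes in any line was 0.0075 in the limma fit. With quantile normalization the OT-1 calls of Rplp0 (log2 0.17, adjusted p = 0.32) and Rps4x (0.17, adjusted p = 0.052) ended. For Rpl11 the values were 1.48-fold in TG6, 1.26-fold in F5 and 1.19-fold in OT-1, the last not called (adjusted p = 0.065, limma). That adjusted p was 0.017 without OT-1 early replicate 2 and 0.031 with the block by replicate number. The F5 call of Rpl11 ended without mature replicate 1 (adjusted p = 0.051, limma) or 2 (0.057). Near-identical sequences held 49.0% of the combined counts for Rpl11 and 37.9% for Rpl39, so the levels of these genes under their own symbols are uncertain.

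Paralogs were set beside their partners. In TG6 Rpl22 stood at 2245, 2241 and 2357 early and 4450, 4186 and 5615 mature, and Rpl22l1 at 525, 686 and 496 early and 1689, 1839 and 1776 mature. Early and mature libraries were separate for both genes in every line. From early to mature Rpl22 rose 2.07-fold in TG6, 1.40-fold in F5 and 1.24-fold in OT-1 (adjusted p = 1.7e-08, 0.00089 and 0.023, limma). The OT-1 call of Rpl22 ended without mature replicate 1 (adjusted p = 0.053), mature replicate 2 (0.075) or early replicate 1 (0.094), and with quantile normalization (0.064). Rpl22l1 rose 3.14-fold in TG6, 1.97-fold in F5 and 1.84-fold in OT-1 (adjusted p = 4.4e-06, 0.0031 and 0.0061). Whether the paralogs changed by different amounts was not tested. Rpl22l1 was uneven at the late stage, at 771 and 1412 in TG6 and 1550, 712 and 1200 in F5, and its residual SD between replicates, 0.30 on the log2 scale, was exceeded among the 79 genes by Rpl10 alone.

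Rpl7l1, a relative of Rpl7 with a role in making the subunit, was called from early to mature in TG6 alone. In TG6 it stood at 976, 962 and 1019 early and 1357, 1202 and 1558 mature (1.38-fold, adjusted p = 0.006). In F5 it stood at 1262, 1212 and 1231 early, 915, 1190 and 1033 late and 1011, 1479 and 1124 mature (early to mature log2 -0.05, SE 0.13, adjusted p = 0.83), the only negative early to mature value among the 79 genes in the 3 lines. In OT-1 it stood at 1333, 1225 and 1260 early and 1379, 1283 and 1628 mature (0.16, SE 0.13, adjusted p = 0.42). Early and mature libraries overlapped in F5 and OT-1 but not in TG6. Rpl7 itself rose 1.62-fold in TG6 and 1.25-fold in F5, and its change of 1.09-fold in OT-1 was not called (adjusted p = 0.31). With quantile normalization the F5 call of Rpl7 ended (log2 0.19, adjusted p = 0.059).

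**Figure D3:**
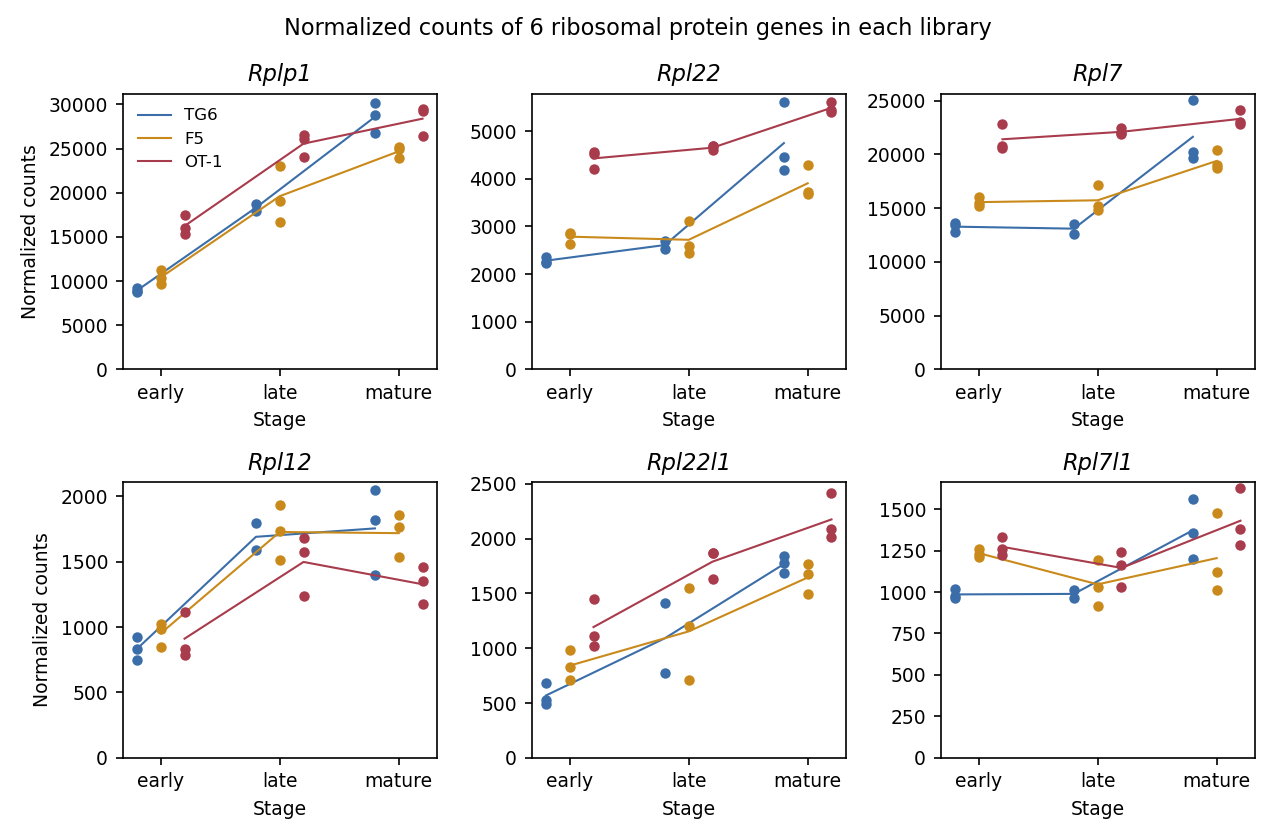
Normalized counts (y axis) at each stage (x axis) for Rplp1, Rpl22, Rpl7, Rpl12, Rpl22l1 and Rpl7l1. Points are libraries and lines join the means of each line. In F5 and OT-1 Rplp1 rises mostly before the late stage, and Rpl7l1 stays between 915 and 1628 in all 26 libraries.

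Under their own symbols, Rpl5, Rpl10, Rpl12 and Rpl27 were called in no line from late to mature, and in TG6 they were the only 4 of the 79 genes not called. Rpl12 rose early, in TG6 from 830, 924 and 744 to 1586 and 1793 (2.03-fold, adjusted p = 0.00011), in F5 1.81-fold (adjusted p = 0.00025) and in OT-1 1.65-fold (adjusted p = 0.0014). Its late to mature log2 changes were 0.04, 0.00 and -0.17 (SE 0.17, 0.16 and 0.16), with overlapping libraries in each line. Rpl5 stood in TG6 at 863, 958 and 560 early, 1250 and 1358 late and 1193, 1377 and 859 mature. Its early to late log2 change was 0.75 in TG6 (adjusted p = 0.011), 0.34 in F5 (adjusted p = 0.21) and 0.45 in OT-1 (adjusted p = 0.082). With the block the adjusted p was 0.0029 in F5 and 0.00028 in OT-1 (limma). Without OT-1 early replicate 2 it was 0.045 in OT-1. The TG6 call ended with only the groups compared (adjusted p = 0.067, limma), without late replicate 2 (0.096) and without early replicate 3 (0.073). Its late to mature changes were -0.22, 0.17 and -0.15 (SE 0.21, 0.19 and 0.19). For Rpl10, which joins the large subunit late in its assembly, they were 0.21, 0.67 and 0.18 (SE 0.30, 0.27 and 0.27), the F5 value with adjusted p = 0.087, and 0.042 with the block and 0.0042 without F5 mature replicate 3 (log2 1.05). For Rpl27, the gene with the lowest mean, they were 0.49, 0.38 and 0.25 (SE 0.22, 0.20 and 0.20).

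These 4 genes also had the largest shares of counts in near-identical sequences elsewhere in the genome. Other symbols were taken as copies where at least 95% of bases matched over at least 80% of the coding sequence, and 71 of the 79 genes had at least 1. Copies held over 50% of the combined counts in 8 genes: Rpl5 (95%), Rpl12 (91.6%), Rpl27 (88.9%), Rpl10 (74.9%), Rpl35 (68.8%), Rpl27a (64.0%), Rpl37 (63.6%) and Rps23 (59.9%). Gm15500, a copy of Rpl5 annotated as a transcribed processed pseudogene (mm10, chromosome 7, 114705217 to 114706235, minus strand), averaged 19873 normalized counts against 1038 for Rpl5. Gm10275, the copy of Rpl12 (chromosome 10, 29698746 to 29699380, minus strand, of the same class), averaged 14774 against 1367. How reads that match both a gene and its copy were divided cannot be seen in these values, so the level of each taken singly is uncertain. The counts of a copy can also differ between lines. Of the copies of Rps18, Gm10260 stood at 1371 to 4684 and Gm11361 at 195 to 981 in the TG6 libraries. In F5 and OT-1 libraries they were at 7.33 or less, and the cause was not tested. The TG6 values of Rps18 under its own symbol leave these counts out.

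Gm15500 stood in TG6 at 11019, 10761 and 10985 early, 14511 and 13625 late and 25143, 23334 and 28132 mature. Gm10275 stood at 7018, 7050 and 7138 early, 12174 and 11301 late and 19558, 18056 and 19770 mature. Both copies were higher at each later stage in TG6, with no overlap between libraries.
With copies added to their gene, an alternative chosen after the data were seen, the late to mature log2 change in TG6 was 0.79 for Rpl5, 0.64 for Rpl12, 0.74 for Rpl10 and 0.67 for Rpl27 (limma, adjusted p = 6.8e-07, 4.1e-05, 3e-06 and 4.4e-05), and 79 of 79 genes were called. In F5 it was 0.55, 0.34, 0.48 and 0.35 (adjusted p = 1.8e-05, 0.0048, 0.00011 and 0.0058). In OT-1 it was 0.16, 0.13, 0.24 and 0.12 (adjusted p = 0.13, 0.28, 0.031 and 0.34). The early to late rise of Rpl12 with its copies was 0.76, 0.68 and 0.43 (adjusted p = 2e-06, 2.9e-06 and 0.0005). The median residual SD between replicates was 0.16 on the log2 scale in the 8 genes under their own symbols and 0.09 with copies added, against 0.10 in the 53 genes whose copies held at most 10%. Copies held under 1% of the combined counts for Rplp1, Rpl22, Rpl22l1 and Rpl7l1.

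**Figure D4:**
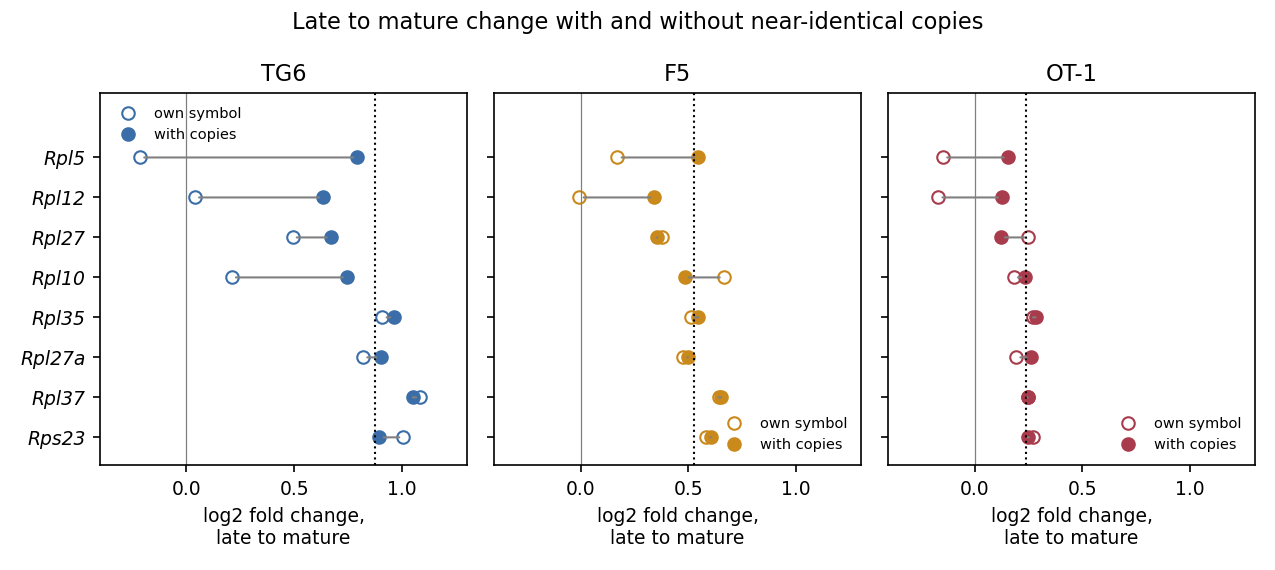
Late to mature log2 fold change (x axis) in each line for the 8 genes whose copies hold over 50% of the combined counts (y axis). Open circles use the gene's own symbol, filled circles the gene with its copies, and dotted lines are the medians of the 79 genes. In TG6 Rpl5 moves from -0.22 to 0.79 and Rpl12 from 0.04 to 0.64.

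Rps12, with the largest early to mature rise in OT-1, was uneven among replicates. It stood in OT-1 at 3952, 6100 and 7357 early, 10582, 9943 and 5949 late and 11003, 11327 and 11596 mature, with overlap between early and late. Its copies held 41.4% of the combined counts, mostly in Rps12-ps3. With copies added the OT-1 early to mature change went from 1.01 to 0.67 on the log2 scale (limma, adjusted p = 8.3e-06), and the F5 late to mature change from 1.15 to 0.87 (adjusted p = 7.8e-07). These lie below the changes of Rps19 in OT-1 and of Rps2 in F5, so Rps12 ranks first in both under its own symbol only.

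Differences between lines in the late to mature change were tested as interactions. Between OT-1 and TG6, 62 of the 79 genes rose less in OT-1 and none rose more, where 1.17% of all genes differed in either direction. The median difference was -0.65 on the log2 scale, and 78 of 79 values were below 0. For Rpsa, among those with the largest difference, the log2 changes of 1.26 in TG6 and 0.34 in OT-1 differed by -0.92 (SE 0.14, adjusted p = 0.0018), and copies held 29.0% of its combined counts. The count was 24 without TG6 late replicate 2, which leaves 1 TG6 late library that is assumed to vary like the other groups, and 52 to 64 without any other single library.

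Between OT-1 and F5, 3 genes rose less in OT-1, where 0.843% of all genes differed, among them Rplp0 (-0.59, SE 0.14, adjusted p = 0.042) and Rps20, named after its values were seen (-0.52, SE 0.12, adjusted p = 0.043). Both calls ended without any single library other than F5 late replicate 1 (adjusted p = 0.054 to 0.11, limma), with no filter (0.08 and 0.076), without the trend (0.076 and 0.082) and with only the groups compared (0.081 and 0.15), and that of Rplp0 with quantile normalization (0.051). Other settings called more genes, 12 with the block by replicate number, 21 with total scaling and 25 with quantile normalization. The count was 30 without F5 late replicate 1, 2 without F5 mature replicate 1 and 0 or 1 without any other single library. Between F5 and TG6, 1 gene rose less in F5, where 0.116% of all genes differed. That count was 0 without any 1 of F5 late replicate 1, the 3 F5 mature libraries, TG6 mature replicates 1 and 3 and the 2 TG6 late libraries, and 2 without TG6 mature replicate 2. At an unadjusted p under 0.05, 72 of the 79 genes rose less in OT-1 than in TG6, 51 less in OT-1 than in F5 and 56 less in F5 than in TG6.

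In the early to late change no gene of the 79 differed between any pair of lines by limma, where 2.04% of all genes differed between OT-1 and TG6, 1.68% between OT-1 and F5 and 2.08% between F5 and TG6. At an unadjusted p under 0.05, 3, 3 and 6 of the 79 did, and without F5 late replicate 1 the limma count between F5 and TG6 was 3. As a description of levels, the means of 77 genes lay in the order TG6, F5, OT-1 at the early stage. Rps18 was among the 77, and its TG6 mean leaves out copies that were counted almost only in TG6. The spread of the lines' medians was 0.80 on the log2 scale at the early stage and 0.32 at the mature stage.

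**Figure D5:**
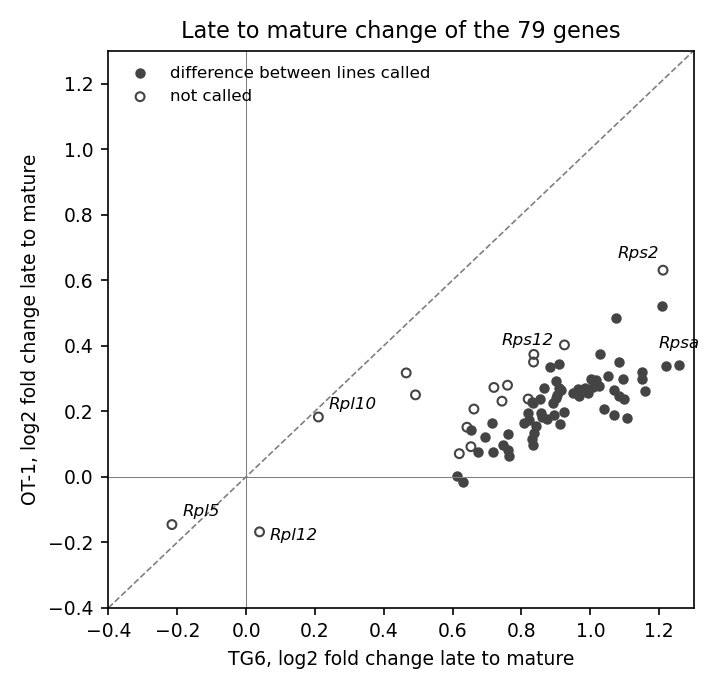
Late to mature log2 fold change of the 79 genes in TG6 (x axis) and OT-1 (y axis). Filled points are the 62 genes whose change differed between the lines, and the dashed line marks equal change. Every point but that of Rpl5 lies below the line.

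Genes with and without the pyrimidine run at the annotated start had similar medians. From late to mature, the 13 genes with it and the 46 without it had medians of 0.91 and 0.85 in TG6, 0.53 and 0.52 in F5 and 0.27 and 0.23 in OT-1. For the 24 genes with CCGGAAG and the 35 without it the medians were 0.91 and 0.86 in TG6, 0.54 and 0.53 in F5 and 0.24 and 0.23 in OT-1. No test was made of these medians. The classes rest on the annotated start, and 35 of the 59 genes had a pyrimidine run within 10 bases of it. Genes without the run at the start may therefore still carry a TOP motif, so these medians cannot compare genes with and without the motif.

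Other genes of translation were read from lists, and the genes named from them were picked after their values were seen. From late to mature, 14.5%, 12.2% and 14.0% of all genes rose and 7.79%, 8.31% and 10.4% fell in TG6, F5 and OT-1. From early to late 12.1%, 12.7% and 12.7% rose and 13.3%, 14.0% and 14.0% fell. The lists are small, and a count near these shares, as for most of the early to late counts and for the regulators, is not a result about the list. Of 2 ribosomal proteins with other symbols, 1, 1 and 0 rose from late to mature in TG6, F5 and OT-1 and none fell, and from early to late none was called in limma. Of 10 elongation and release factors, 7, 7 and 6 rose from late to mature in TG6, F5 and OT-1 and none fell, and from early to late 3, 1 and 2 rose and 0, 2 and 0 fell. Eef1b2, an exchange factor of elongation factor 1, rose in both changes in each line, by 0.51, 0.24 and 0.43 and then by 0.97, 0.84 and 0.27. Of 30 initiation factors, 20, 13 and 17 rose from late to mature and none fell, and from early to late 2, 1 and 1 rose and 3, 6 and 4 fell. Their early to late medians were -0.03, -0.19 and -0.14. Eif4h, a helper of the RNA helicase eIF4A, fell over that interval in each line, with log2 changes of -0.41, -0.43 and -0.54. Of 20 other mRNAs known to carry a TOP motif, some of them also in the factor lists, 18, 11 and 7 rose from late to mature and none fell, and 7, 4 and 4 rose and 2, 1 and 1 fell from early to late.

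Of 19 regulators of TOP mRNAs and translation, 4, 2 and 2 rose and 1, 1 and 1 fell from late to mature, and 2, 1 and 3 rose and 5, 3 and 2 fell from early to late. Of 14 chaperones and partners of ribosomal proteins, 7, 6 and 2 rose and 1, 1 and 1 fell from late to mature, and 3, 2 and 1 rose and 1, 2 and 2 fell from early to late. The gene that fell from late to mature was Mdm2 in each line, with log2 changes of -0.39, -0.28 and -0.30. Of 8 paralogs left out by the symbol rule, 6 were tested, and 3, 2 and 1 rose from late to mature while 2, 1 and 1 fell from early to late. Rps27l, a p53 target related to Rps27, changed by -1.17, -1.48 and -0.96 from early to late and by 1.47, 1.31 and 1.05 from late to mature on the log2 scale, each called.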

How the data were processed

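RNA from sorted thymocytes of 26 libraries was sequenced on a HiSeq instrument. The submitters' processing notes name Trimmomatic 0.32, Bowtie2 2.3.2, RSEM 1.2.31, DESeq2 and mm10. The authors deposited RSEM estimated counts per gene divided by DESeq2 size factors, used here as a normalized signal and not as raw counts, since dividing by each library's step left 42.4 to 44.3% of values above 0 whole (within 0.01). Depth per library was 16161675 to 18345799 estimated reads.

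Groups followed the sample labels. Values were taken as log2(value + 1) for 16372 genes with at least 10 in at least 2 libraries. A mean was fitted for each of 9 groups in limma 3.58.1 (R 4.3.3) with a mean-variance trend and 17 residual degrees of freedom, and stage changes and their differences between lines were tested two-sided with Benjamini-Hochberg adjustment within each comparison, called under 0.05. Because of the added 1, changes of low genes are understated. The members, lists and tests were chosen with earlier results of these data known. Named members are the 2 called genes with the largest rise and fall per comparison, any called against the common direction, the 2 with the largest difference per pair of lines, a list chosen by role, the 3 highest per length and those with the lowest mean. A few genes that this rule names are not reported here. Near-identical copies were found with BLAST 2.17.0 among genes of at most 10000 bases with at least 50% of the copy covered, and the fit was checked on simulated data.

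The labels reuse replicate numbers across stages of a line and call the replicates biological, without saying that a number is 1 mouse. In F5 deviations from the group means correlated at 0.11 to 0.34 for all 9 same-number pairs, against at most 0.05 for different numbers, so F5 numbers were taken to pair libraries. In TG6 and OT-1 they were not. In TG6, though, 2 copies of Rplp0 went with a number across stages. Gm8730 was at 2776 and 6919 and Gm9625 at 1183 and 3394 in early and mature replicate 3, and neither passed 5.05 in any other library. The main fit has no block, so its tests take libraries of the same number as independent, and the blocked fit is an alternative. Pseudocounts of 0.1 and 5, other filters, scalings and variance models and leaving out each library were also tried.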

Additional observations from a re-analysis of the deposited data

Results flagged for a closer look

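These results were picked because the late to mature change differed between lines in a test of the difference itself. Between OT-1 and TG6 it differed for 62 of the 79 genes, among them Rpsa (-0.92 on the log2 scale, OT-1 minus TG6), and for 24 without TG6 late replicate 2. Between OT-1 and F5 it differed for 3 genes, among them Rplp0 (-0.59). That count ran from 0 to 30 when 1 library was left out and was 12 with the replicate block, 21 with total scaling and 25 with quantile normalization. The Rplp0 call ended without any single library other than F5 late replicate 1, and with no filter, without the trend, with quantile normalization and with only the groups compared. Between F5 and TG6 it differed for 1 gene, and for 0 to 2 when 1 library was left out. No test was made of single libraries that lie far from their group of 2 or 3.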

How the results depend on the processing

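Of 99 named gene values, 99 kept their direction and side of the threshold with pseudocounts of 0.1 and 5, 98 with a mean of at least 50, 97 with no filter, without the trend and with total scaling, 92 with only the groups compared, 90 with quantile normalization and 84 with copies added. With the replicate block 93 did, 6 gained a call and no call ended. Same-number pairs over 0.1 numbered 2 of 7 in TG6 (0.02 to 0.27) and 5 of 9 in OT-1 (0.02 to 0.18). A library correlated best with its own number in 11 of 14 checks in TG6, 18 of 18 in F5 and 17 of 18 in OT-1, a hint from the data and not the design. The block gave 12 calls between OT-1 and F5 from late to mature, against 3. Other counts for that difference were 1 with no filter, 5 with a mean of at least 50, 21 with total scaling, 25 with quantile normalization, 1 without the trend, 5 with copies added and 0 with only the groups compared. Between F5 and TG6 the late to mature count was 0 with total scaling, without the trend, with copies added and with only the groups compared. From early to late the differences between OT-1 and TG6 numbered 3 with quantile normalization and 1 with only the groups compared, and those between F5 and TG6 numbered 2 with quantile normalization. With only the groups compared, 4 genes were called in F5 from early to late and 34 from late to mature. These fits hold fewer libraries.

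With total scaling the median log2 fold change was 0.77 in TG6 from late to mature and 1.06 from early to mature, where the median of all genes was -0.11 and -0.12, against 0.00 and -0.03 without that scaling. With quantile normalization the members' medians were 0.76 and 1.04, the F5 median from early to late was 0.11 against 0.10 for all genes, and the OT-1 medians were 0.15 from late to mature (21 called) and 0.34 from early to mature. Of all genes, 2379 rose and 1276 fell from late to mature in TG6, against 1919 and 1938 with total scaling and 1905 and 1951 with quantile normalization. In OT-1 2300 rose and 1697 fell, against 1879 and 2188 with quantile normalization. With copies added the mean share was 3.28, 4.02 and 6.88% in TG6, 3.92, 4.34 and 6.29% in F5 and 5.49, 6.40 and 7.16% in OT-1.

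Some small late to mature changes turned direction: Rpl12 in TG6 to -0.071 with total scaling, Rpl12 in F5 to 0.039 with quantile normalization and 0.34 with copies added, and in OT-1, with copies added, Rpl12 to 0.13, Rpl5 to 0.16 and Rps27 to 0.013. Rpl5 in TG6 went to 0.79 with copies added. Rpl7 in OT-1 went to -0.080 from early to mature with quantile normalization. Apart from the counts that adding copies or leaving out libraries changes by construction, the cause was not tested.

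Leaving out 1 library gave 16 to 31 calls from early to late in TG6, 11 to 36 in F5 and 21 to 45 in OT-1. From late to mature it gave 73 to 75, 63 to 74 and 16 to 26, and from early to mature 76 to 79, 70 to 73 and 61 to 69. The F5 median ranged from 0.071 to 0.23 from early to late and from 0.45 to 0.62 from late to mature. Differences from late to mature numbered 24 to 64 between OT-1 and TG6, 0 to 30 between OT-1 and F5 and 0 to 2 between F5 and TG6, and from early to late 0 to 3 between F5 and TG6. Single values that turned ranged from -0.080 to 0.19 for Rpl12 and from -0.030 to 0.38 for Rpl10 in TG6, from -0.095 to 0.080 for Rpl12 in F5 (0.00086 without late replicate 3), from -0.032 to 0.015 for Rps27 in OT-1 and, from early to mature, from -0.21 to 0.062 for Rpl7l1 in F5. With 2 TG6 late libraries, changes into and out of that stage are the least precise.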
